A study of Mus musculus with 8 samples.

Results

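The subunits of respiratory complexes II to V were followed in blood stem cells sorted from the bone marrow of mice and exposed to eltrombopag. Members were all genes of the platform annotation named Sdha, Sdhb, Sdhc, Sdhd or Cyc1, or with a symbol that starts with Uqcr, with Cox4 to Cox8, or with Atp5. This gave 48 of the 19505 genes named on the arrays, with 4 in complex II, 9 in complex III, 18 in complex IV and 17 in complex V. Each was read by 1 probe set. All but Cox7a2l encode subunits, and Cox7a2l encodes a relative of subunit 7a that joins complexes III and IV into supercomplexes.

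The study set 4 arrays of eltrombopag-treated cells beside 4 arrays of vehicle-treated cells, each numbered 1 to 4. Marrow cells of mice aged 6 to 10 weeks were sorted as lineage-negative, Sca-1+, c-Kit+, CD150+ and CD48-, and both groups were cultured in Myelocult M5300 medium with stem cell factor at 100 ng/ml and the antibiotic Primocin. One group received eltrombopag at 10 µg/ml for 16 h and the other sterile water for the same time. Strain, sex and genotype are not given in the sources used here. The titles call the replicates biological, without saying whether animals were pooled or shared between groups. If the arrays of a group came from a common pool of cells, a p-value reflects only the variation among arrays, part of which may be technical. If animals were shared between groups, a paired test would be called for, and the main test was not paired. The comparison asks which transcripts of these cells differ with the drug.

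The values are log2 expression values made by robust multi-array averaging, which sets all arrays to a common distribution. In such values fewer cells of a type and less RNA per cell cannot be told apart, and absolute amounts of RNA are not kept. Array medians over all genes lay between 6.755 and 6.801, and correlations between arrays across genes between 0.9868 and 0.9933. Of 10 stem cell markers, 8 were measured, and Kit lay at 12.82 to 12.94, Hlf at 11.19 to 11.78 and Mecom at 10.06 to 10.51. Slamf1, which encodes CD150, had 6.19 to 7.75, and Cd48, which the sort gated out, 5.66 to 6.55, beside a median of 6.785 over the mean values of all genes. Of 23 markers of other cell types 18 were measured, and 13 of these had a mean below that median. The other 5 were Itga2b, Pf4 and Gp9, known from megakaryocytes, with means of 9.40, 8.93 and 8.68, Elane of granulocyte precursors at 7.35 and Cxcl12 of marrow stroma at 7.25. No marker passed the test between the groups.

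As background, complexes II to IV of the inner mitochondrial membrane pass electrons from succinate and ubiquinol to oxygen, and complex V, the ATP synthase, uses the proton gradient to make ATP. Complexes II and III hold iron-sulfur clusters and hemes, and complex IV holds hemes and copper. Eltrombopag, an oral drug that raises blood cell counts, also binds iron. Stem cells in marrow are known for a low rate of respiration and a reliance on glycolysis. The subunits encoded in mitochondrial DNA, such as cytochrome b and the catalytic core of complex IV, are outside the rule.

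Promoter sequences of members were set beside letters that known regulators of these genes prefer. Nuclear respiratory factor 1 (NRF1) prefers GCGCA, then any base, then GCGC, and GABP, a factor of the ETS family, prefers CCGGAAG. Both were searched on both strands in 250 bases before and 50 bases after each annotated start, with promoters from RefSeq on GRCm38.p6. Of the 48 members, 36 had a promoter in that table. The NRF1 letters were in 10 of these 36 (27.8%), against 7.63% of 15691 measured genes. The ETS letters were in 13 (36.1%), against 13.2%. One or both were in 19 (52.8%), against 19.2%, namely in 3 of 3 members of complex II, 3 of 5 of complex III, 3 of 13 of complex IV and 10 of 15 of complex V. No match of one motif overlapped a match of another. The 11 letters AAGATG directly followed by GCGGC, preferred by YY1, were in 0 of 36 members and in 1.12% of genes. A match describes the letters and is no evidence of binding.

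The 100 bases before the start are shown for the 6 of the 26 members described singly that hold a whole NRF1 or ETS match there. Capitals mark the matches, and sequences run 5′ to 3′ on the gene's strand, which is the minus strand for all 6.
Sdha, chr13:74350241-74350340: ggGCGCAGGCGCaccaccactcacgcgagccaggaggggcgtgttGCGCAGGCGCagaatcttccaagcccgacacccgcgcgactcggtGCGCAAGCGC
Sdhd, chr9:50603850-50603949: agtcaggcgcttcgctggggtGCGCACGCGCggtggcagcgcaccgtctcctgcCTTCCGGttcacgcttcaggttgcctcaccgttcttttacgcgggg
Cox6a1, chr5:115348959-115349058: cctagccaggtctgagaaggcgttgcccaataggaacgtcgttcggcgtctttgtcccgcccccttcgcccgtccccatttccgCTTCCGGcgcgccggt
Cox6b1, chr7:30626115-30626214: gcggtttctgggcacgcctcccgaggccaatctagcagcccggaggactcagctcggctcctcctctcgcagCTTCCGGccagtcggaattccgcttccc
Atp5g2, chr15:102671048-102671147: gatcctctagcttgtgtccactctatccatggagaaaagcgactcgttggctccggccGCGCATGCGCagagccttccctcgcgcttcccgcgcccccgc
Atp5k, chr5:108434400-108434499: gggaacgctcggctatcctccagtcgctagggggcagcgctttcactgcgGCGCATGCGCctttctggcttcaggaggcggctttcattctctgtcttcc
Sdha held 3 NRF1 matches in this window, which start 98, 55 and 10 bases before the annotated start. Sdhd held 1 match of each kind.

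With eltrombopag, no gene of complexes II to V differed from vehicle beyond the spread of the arrays. At an adjusted p under 0.05, 0 of 48 members and 0 of 19505 genes (0%) passed in limma, and the adjusted p was 0.99978 for every member. Before adjustment, 0 members had a p under 0.05, against 3.33% of all genes (1.74% on the higher side). In no member did the 4 eltrombopag values lie all above or all below the 4 vehicle values, against 1.12% of genes above and 1% below. The largest difference of a member was 0.27, for Atp5k.

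The differences were bounded closely. The 95% interval of the log2 difference excluded a 2-fold change for 48 of 48 members, against 98.7% of all genes, and a 1.5-fold change for 47 (97.9%), against 88% of all genes. The exception was Sdha. A 1.5-fold change was also excluded for 35 of 36 complex I subunits (97.2%) and 75 of 76 mitochondrial ribosomal proteins (98.7%). The median half-width of the interval was 0.22 for members and 0.28 for all genes, and the median SD over the 8 arrays 0.10 and 0.18. These intervals are not adjusted over genes. Members were bright on the arrays: 37 of 48 had a mean above the upper quartile of all gene means (8.658), which describes brightness and not amount.

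**Figure D1:**
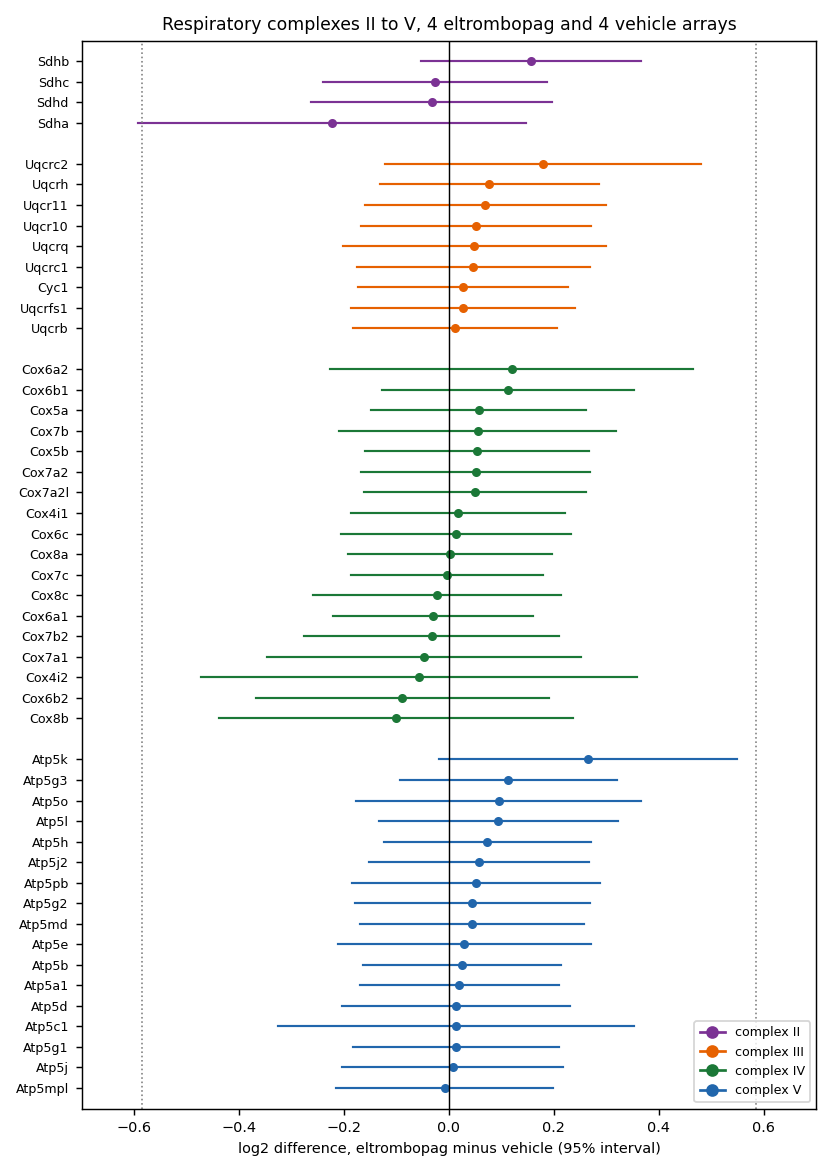
Log2 difference, eltrombopag minus vehicle, for each of the 48 genes by complex (points) with its 95% interval from limma (lines, 4 arrays per group). Dotted lines mark a 1.5-fold change, and every interval crosses 0.

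Most differences lay slightly above 0. Of 48 members 36 (75%) were higher with eltrombopag, against 52.3% of all genes, with a median log2 difference of 0.028 against 0.0071 over all genes. The count differed by complex: 1 of 4 was higher in complex II, 9 of 9 in complex III, 10 of 18 in complex IV and 16 of 17 in complex V. Medians were -0.030, 0.049, 0.0074 and 0.044. The median of complex IV turned to -0.0024 when arrays were set to equal medians, and that of complex II to 0.0034 without eltrombopag array 1, so no direction is given for either. With 1 array left out, the median of complex III ran from 0.024 (without eltrombopag array 1) to 0.083 (without eltrombopag array 3), and that of complex V from 0.028 (without eltrombopag array 1) to 0.090 (without vehicle array 1). The medians of complexes III and V also turned sign within single replicate numbers, as given below. Members of a complex share arrays, so these counts are not independent, and no test was made of them.

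Complex II oxidizes succinate and links the TCA cycle to the chain. Sdha, its flavoprotein, had log2 values of 9.04, 8.94, 9.01 and 8.70 in eltrombopag arrays 1 to 4, against 8.62, 9.40, 9.32 and 9.24 in vehicle arrays 1 to 4. The eltrombopag values lay below those of vehicle arrays 2 to 4 and above vehicle array 1, the lowest of all 8. The log2 difference was -0.22 (SE 0.17, interval -0.59 to 0.15, adjusted p 0.99978 in limma). Without vehicle array 1 it was -0.40 (unadjusted p 0.00604, adjusted p 0.99634 in limma), and without vehicle array 2 it was -0.14 (adjusted p 0.99991 in limma). Over 18 alternatives it ran from -0.42 to -0.021. Without vehicle array 1, 2 of 48 members had an unadjusted p under 0.05 in limma, against 4.24% of all genes.

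Sdhb, the iron-sulfur protein, had 10.40, 10.39, 10.39 and 10.33 in eltrombopag arrays, against 10.40, 10.12, 10.22 and 10.15 in vehicle arrays. The eltrombopag arrays were close together, and vehicle array 1 lay among them while the other vehicle arrays lay below. Its log2 difference was 0.16 (SE 0.095, adjusted p 0.99978 in limma), with 4 of 4 numbers higher, which 6.73% of all genes share. In number 1 the difference was only 0.00023.
Sdhc and Sdhd, the membrane anchors that hold heme b, had overlapping groups. Sdhc averaged 7.47 ± 0.094 with eltrombopag and 7.49 ± 0.11 with vehicle, and Sdhd 8.97 ± 0.14 with eltrombopag and 9.01 ± 0.10 with vehicle (SD, n = 4 each). Each had a log2 difference of -0.03 that turned sign when 1 array was left out.

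Complex III passes electrons from ubiquinol to cytochrome c. Uqcrc2, a core protein, had log2 values of 8.57, 8.35, 8.24 and 8.47 in eltrombopag arrays, against 8.39, 8.49, 8.09 and 7.95 in vehicle arrays. Vehicle arrays 3 and 4 were low, and the groups overlapped. The log2 difference was 0.18 (SE 0.14, interval -0.12 to 0.48, adjusted p 0.99978 in limma), the smallest p of the complex. Without vehicle array 4 it was 0.085. No member of the complex had a difference below 0.
The iron-bearing proteins of the complex had differences near 0. Cyc1, the heme protein cytochrome c1, averaged 10.96 ± 0.066 with eltrombopag and 10.94 ± 0.084 with vehicle (SD, n = 4 each). The Rieske iron-sulfur protein Uqcrfs1 averaged 9.09 ± 0.020 with eltrombopag and 9.06 ± 0.14 with vehicle (SD, n = 4 each). Both had a log2 difference of 0.03, with intervals from -0.17 to 0.23 and from -0.19 to 0.24. The remaining 6 genes of the complex differed by 0.01 (Uqcrb) to 0.08 (Uqcrh, the hinge protein).

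Complex IV reduces oxygen to water, and several of its nuclear subunits have tissue isoforms. Cox4i1, the common form of subunit 4, had 11.69, 11.56, 11.52 and 11.77 in eltrombopag arrays, against 11.61, 11.59, 11.64 and 11.65 in vehicle arrays. Its log2 difference was 0.02 (SE 0.092, adjusted p 0.99978 in limma), and it turned sign when eltrombopag array 1 or 4 was left out. Cox4i2, the form known from lung and from oxygen sensing, had 8.09, 8.23, 7.26 and 7.83 in eltrombopag arrays, against 7.83, 8.09, 7.88 and 7.83 in vehicle arrays. Eltrombopag array 3 was lowest of all 8, and the other eltrombopag arrays lay within the vehicle range except array 2, which was above it. The difference was -0.06 (SE 0.19) over all arrays, 0.14 without eltrombopag array 3 and -0.18 without eltrombopag array 2.

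The other isoform families did not part between the groups either. Of the forms used in most tissues, Cox6a1 differed by -0.03, Cox6b1 by 0.11, Cox7a2 by 0.05, Cox7b by 0.06 and Cox8a by 0.0021. Of the heart and muscle forms, Cox6a2 differed by 0.12, Cox7a1 by -0.05 and Cox8b by -0.10. Of the testis forms, Cox6b2 differed by -0.09, Cox7b2 by -0.03 and Cox8c by -0.02. SEs of these 11 genes ran from 0.086 to 0.16, with an adjusted p of 0.99978 for all of them in limma.
Among all 18 genes of complex IV the smallest p belonged to Cox6b1 on the higher side and to Cox6b2 on the lower side. Cox6b1 had 9.70, 9.48, 9.65 and 9.75 in eltrombopag arrays, against 9.71, 9.36, 9.59 and 9.48 in vehicle arrays. Cox6b2 had 9.78, 9.86, 10.12 and 9.78 in eltrombopag arrays, against 10.24, 10.02, 9.83 and 9.81 in vehicle arrays. The groups of both genes overlapped. With 1 array left out, the difference of Cox6b1 ran from 0.053 (without vehicle array 2) to 0.17 (without vehicle array 1), and that of Cox6b2 from -0.17 (without eltrombopag array 3) to -0.00088 (without vehicle array 1).

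Cox7b2, Cox8b and Cox8c were the 3 members with a mean below the median of all genes. Cox7b2 averaged 4.63 ± 0.17 with eltrombopag and 4.66 ± 0.095 with vehicle, and Cox8b 5.63 ± 0.29 with eltrombopag and 5.73 ± 0.19 with vehicle (SD, n = 4 each). Cox8c averaged 6.50 ± 0.14 with eltrombopag and 6.53 ± 0.12 with vehicle (SD, n = 4 each). How far such dim values follow their transcripts, and whether probes of one isoform also read another, is not known here. Cox7a2l, the supercomplex factor, differed by 0.05 (SE 0.095), which became 0.00089 without eltrombopag array 4 and 0.098 without eltrombopag array 3.

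Complex V makes ATP. Atp5k, the e subunit where ATP synthase dimers meet, had log2 values of 8.86, 8.46, 8.59 and 8.98 in eltrombopag arrays, against 8.52, 8.44, 8.31 and 8.56 in vehicle arrays. Eltrombopag arrays 1, 3 and 4 lay above every vehicle array, and eltrombopag array 2 lay among them. The log2 difference was 0.27 (SE 0.13, interval -0.02 to 0.55, unadjusted p 0.0639, adjusted p 0.99978 in limma). It was the smallest p of all members. With the replicate number as a block the unadjusted p was 0.0326 and the adjusted p 0.98427 in limma, and Atp5k was then the 1 member of 48 with an unadjusted p under 0.05, against 4.63% of all genes.

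The g subunit Atp5l, the neighbour of the e subunit in the membrane, differed by 0.09 (SE 0.10). The 3 genes of the c subunit, which encode the same mature protein of the rotating ring, had overlapping groups. Atp5g3 had 10.53, 10.53, 10.69 and 10.72 in eltrombopag arrays, against 10.54, 10.40, 10.55 and 10.52 in vehicle arrays, a log2 difference of 0.11 (SE 0.093). Eltrombopag arrays 3 and 4 were above all vehicle arrays and arrays 1 and 2 were not. Atp5g2 differed by 0.04 (SE 0.10) and Atp5g1 by 0.01 (SE 0.089).
In the catalytic head, Atp5a1 averaged 11.99 ± 0.035 with eltrombopag and 11.97 ± 0.069 with vehicle, and Atp5b 12.21 ± 0.063 with eltrombopag and 12.19 ± 0.037 with vehicle (SD, n = 4 each). Atp5o, at the top of the peripheral stalk, differed by 0.09 (SE 0.12), which became 0.011 without eltrombopag array 1 and 0.17 without eltrombopag array 3. Atp5mpl was the only lower gene of the complex, with a log2 difference of -0.0081 that turned to 0.0028 with quantile normalization.

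**Figure D2:**
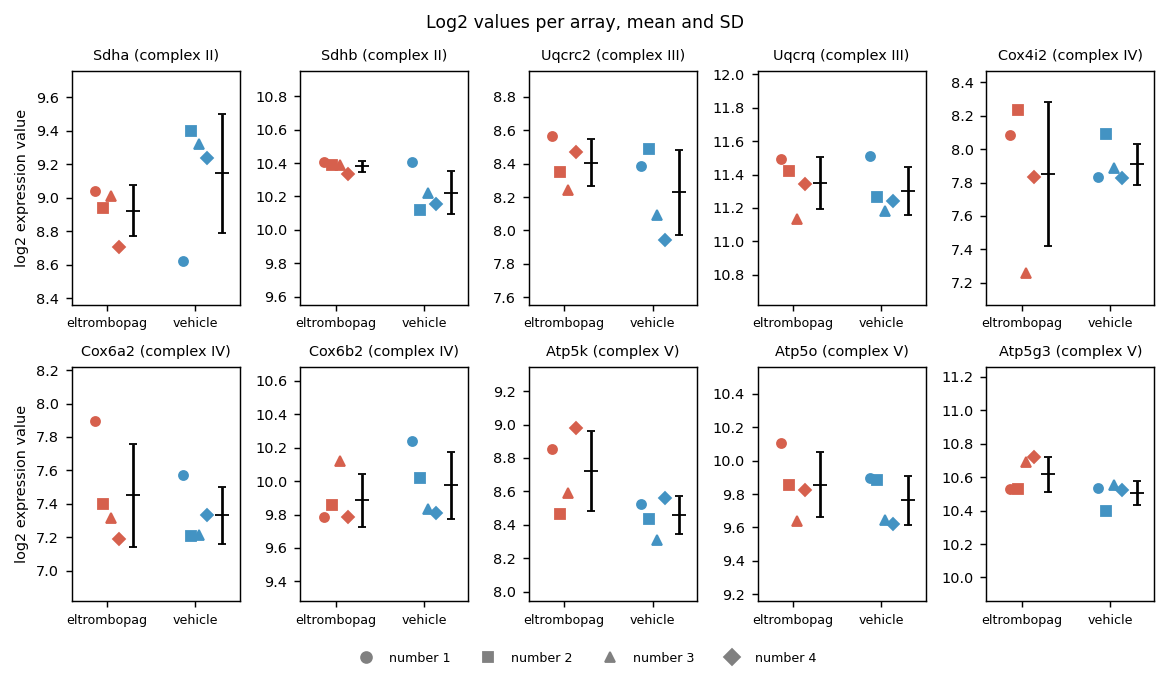
Log2 expression value per array for 10 genes in eltrombopag (left, red) and vehicle arrays (right, blue), with symbols for replicate numbers 1 to 4 and black bars for the mean and SD. Every panel spans the same log2 range, and the groups overlap in all 10.

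In this description, arrays of the same number were treated as pairs, since their deviations from the group mean went together over all genes. The main test had group as its only term and did not use these pairs. The small surplus of higher genes was greatest in number 4. There 34 of 48 members were higher with eltrombopag, with a median difference of 0.097, against -0.00225 over all genes. In numbers 1, 2 and 3 it was 25, 29 and 25 members, with medians of 0.00043, 0.023 and 0.011. Over all genes these medians were 0.0042, 0.0062 and 0.017, above those of the members in numbers 1 and 3. Of all 19505 genes, 9890, 9991 and 10368 were higher in these numbers, and 9691 in number 4. In number 4 complex V had a median of 0.14, complex III of 0.10 and complex IV of 0.087, while complex II had -0.15. Complex III had a median of -0.024 in number 2 (4 of 9 higher), and complex V of -0.010 in number 1 (8 of 17 higher). Each was positive in its other numbers. Without both arrays numbered 4, 31 of 48 were higher and the median was 0.022, against 52.7% and 0.0098 over all genes. Atp5k, Sdhb and Uqcr11 were higher in all 4 numbers, 6.25% of members against 6.73% of all genes. In number 1 the arrays were nearly equal for Sdhb (0.00023) and Uqcr11 (0.00062).

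**Figure D3:**
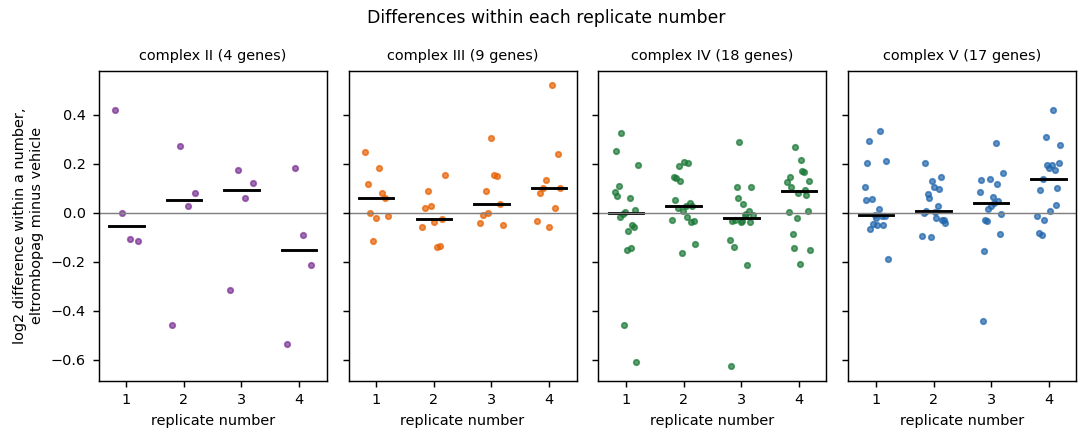
Log2 difference within each replicate number (eltrombopag minus vehicle array of that number) for every gene, by complex, with black lines at the median. The medians of complexes III, IV and V are highest in number 4 (0.10, 0.087 and 0.14), and that of complex II is lowest there (-0.15).

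The arrays were also described by number, as means over both groups. Number 1 had the highest mean of the 4 numbers for 24 of 48 members, against 32.1% of all genes, and number 2 the lowest for 24 of 48, against 28.7%. Numbers 1 and 2 were set side by side after these values were seen. In both groups, number 1 was above number 2 for 30 of 48 members (62.5%), against 33.5% of all genes. The median log2 difference of number 1 minus number 2 was 0.11 with eltrombopag and 0.13 with vehicle, each from 1 array against 1 array. In eltrombopag array 1, 36 of 48 members lay above their own mean over all arrays, and in vehicle array 1 there were 31. In array 2 there were 14 with eltrombopag and 15 with vehicle. Array 3 had 19 with eltrombopag and 14 with vehicle, and array 4 had 30 with eltrombopag and 21 with vehicle, so single arrays of other numbers were about as high or as low.

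In the test across the 4 numbers, a limma F test with group in the model, 0 of 48 members passed, against 0.21% of all genes. Of the members, Cox6a2 had the smallest p, with 7.90, 7.40, 7.31 and 7.19 in eltrombopag arrays, against 7.57, 7.21, 7.21 and 7.34 in vehicle arrays. Array 1 was the highest of each group (unadjusted p 0.0408, adjusted p 0.465 in limma). In the other complexes the smallest p across numbers belonged to Sdhc, Uqcrq and Atp5o, with adjusted p-values of 0.765, 0.595 and 0.568 in limma. Uqcrq, a small subunit, had 11.50, 11.42, 11.14 and 11.34 in eltrombopag arrays, against 11.51, 11.27, 11.18 and 11.24 in vehicle arrays. Array 1 was highest and array 3 lowest in both groups. Atp5o had 10.11, 9.85, 9.64 and 9.83 in eltrombopag arrays, against 9.90, 9.88, 9.64 and 9.62 in vehicle arrays.

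**Figure D4:**
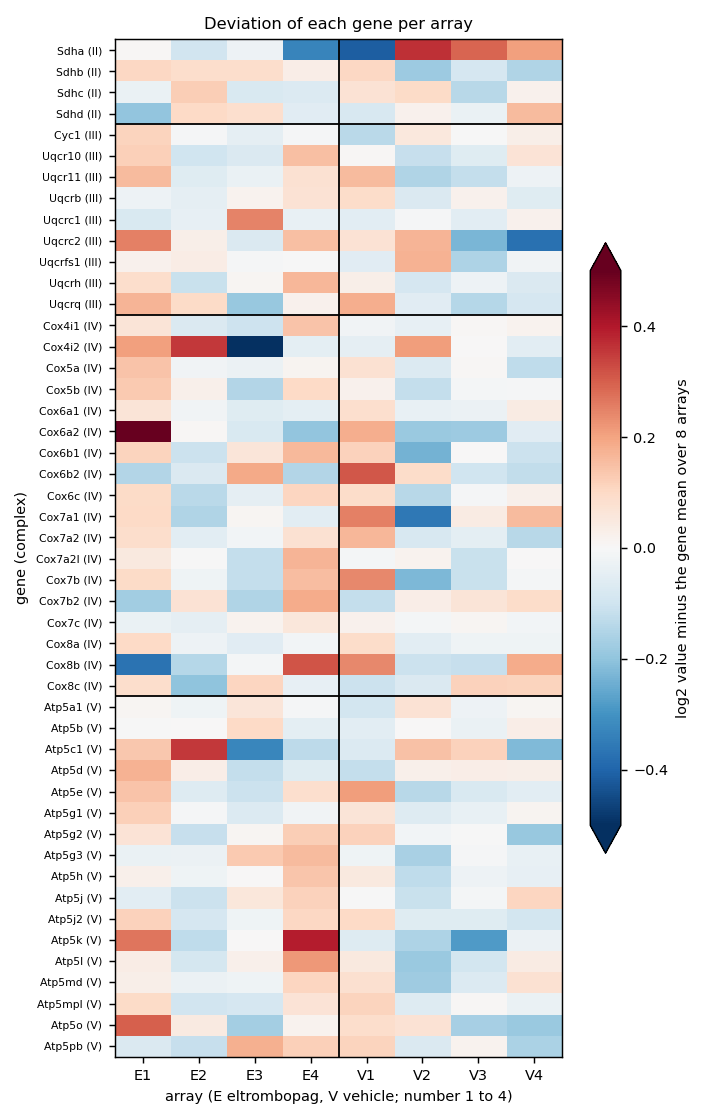
Log2 value of each gene on each array minus its mean over the 8 arrays (colour, red above and blue below), with eltrombopag arrays E1 to E4 left of vehicle arrays V1 to V4 and complexes parted by lines. Columns E1 and V1 are mostly red (36 and 31 of 48 genes above their mean), as is E4 (30), and E2, V2 and V3 are mostly blue (14, 15 and 14 above).

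Other genes of the pathway gave no call. Of 79 list entries 73 were measured, and 0 passed in either direction. All eltrombopag values lay above all vehicle values for 1 of the 73 (Cox14), against 1.12% of all genes. They lay all below for 1 (Ppargc1a), against 1% of all genes. Both genes were named after their values were seen. With eltrombopag, higher assembly factors numbered 3 of 4 for complex II, 5 of 6 for complex III, 18 of 23 for complex IV and 2 of 4 for complex V with its inhibitor Atpif1. Carriers of electrons, nucleotides and phosphate were higher in 12 of 18, and regulators of mitochondrial biogenesis in 7 of 18, against 52.3% of all genes. The unadjusted p was under 0.05 for 4 of the 73, against 3.33% of all genes. They were Coa4 and Polg2, with higher values, and Sco1 and Lrpprc, with lower ones, Lrpprc being named after its value was seen. With the replicate block Coa4 was no longer among them (unadjusted p 0.0603 in limma), and Atpaf2, with lower values, was (unadjusted p 0.0488 in limma).

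Sco1, a copper chaperone of complex IV, had the smallest p of its list on the lower side, with 6.70, 6.33, 6.76 and 6.41 in eltrombopag arrays, against 7.24, 6.93, 7.01 and 6.74 in vehicle arrays. It was lower in 4 of 4 numbers, with groups that overlapped at eltrombopag array 3, and differed by -0.43 (SE 0.14, unadjusted p 0.0106, adjusted p 0.99978 in limma). On the higher side of that list Coa4 differed by 0.25 (SE 0.10), also without passing. Polg2, the accessory subunit of the mitochondrial DNA polymerase, differed by 0.34 (SE 0.15), and Gabpb1, a subunit of GABP, by -0.24 (SE 0.13). In the remaining lists the smallest p on the higher side belonged to Sdhaf1 (0.19), Uqcc2 (0.10), Tmem70 (0.21) and Coq7 (0.18). With 1 array left out these ran from 0.14 to 0.25 for Sdhaf1, 0.046 to 0.16 for Uqcc2, 0.13 to 0.30 for Tmem70 and 0.070 to 0.26 for Coq7, with the lowest of the last 3 without eltrombopag array 2, vehicle array 2 and eltrombopag array 2. On the lower side it belonged to Sdhaf3 (-0.07), Bcs1l (-0.01), Atpaf2 (-0.24) and Coq6 (-0.17), the last of which ran from -0.26 (without eltrombopag array 4) to -0.071 (without vehicle array 2). Nrf1, whose product prefers the letters shown above, had 10.13, 10.45, 9.83 and 10.26 in eltrombopag arrays, against 10.39, 10.30, 9.76 and 10.24 in vehicle arrays, and the groups overlapped.

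Of the complex I subunits 30 of 36 were higher, with a median of 0.045, and mitochondrial ribosomal proteins in 61 of 76, with a median of 0.064. These stand beside 36 of 48 and 0.028 for complexes II to V, and none of the 3 sets held a called gene. No difference between the sets was tested.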

How the data were processed

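Transcripts were measured on Affymetrix arrays in 8 samples, 4 treated with eltrombopag and 4 with vehicle. Per the labels' protocols, a kit for 3' transcript ends served to amplify about 10 ng of RNA and label it with biotin. The authors deposited 1 log2 value for every probe set and array. The submitters' processing notes list RMA, oligo and limma, with no version. RMA is known to remove background, bring arrays to a common distribution and summarise probes, so differences in total RNA are not kept. No source used here names the genome build behind the probe sets.

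Of 22206 probe sets, 19572 had 1 gene symbol, 0 several, and 2634 were unnamed here, which left 19505 genes. Where a gene had several probe sets (55 genes, no member among them), the brightest on average was taken. No filter was set on dim genes. No probe set had equal values on any pair of arrays. The number of arrays limits the precision, and signal over background is not part of these values.

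The test was limma (3.58.1, run under R 4.3.3, with lmFit and eBayes), two-sided, with group as the only term, over all genes, with Benjamini-Hochberg adjustment and a threshold of 0.05. A moderated F test compared replicate numbers with group in the model. Both were tested on simulated data. Same-numbered arrays deviated together from their group means across genes (correlations 0.232, 0.286, 0.181 and 0.133 for numbers 1 to 4). For differences within a number, arrays were therefore paired by number, on the evidence of the data and not of the labels. The main test did not use this pairing. A blocked fit was an alternative.

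Members, gene lists and tests were chosen with earlier results of these data known. By rule, 26 of the 48 members are described singly: the Sdh genes, the isoform families, the c-ring genes, and per complex the member with the smallest p on each side and across numbers. In each list of other pathway genes the smallest p on each side was named. Cyc1, the other Uqcr and Atp5 genes and Nrf1 were named for their roles, or for being higher in every number, after values were seen. Alternatives covered the block, a filter on dim genes, quantile normalization, equal medians, array weights, a trended and robust variance, probe sets averaged per gene, subunits alone, numbers 1 and 2 or 3 and 4 alone, and single arrays or numbers left out.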

Additional observations from a re-analysis of the deposited data

Results flagged for a closer look

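Over the genes described singly, 1 of 76 groups of 4 arrays held an array far from its other 3, where chance gives about 3.8 (about 1 group in 20). It was Gabpb1 on vehicle array 3, at 9.21, while the remaining vehicle arrays lay between 8.95 and 8.98, a gap of 0.90 of the group's range.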

How the results depend on the processing

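The counts of called genes and of called members between eltrombopag and vehicle were 0 in all 21 alternatives, among them the replicate block (adjusted p of 0.98427 or above for members), which changed no call, with 904 genes under an unadjusted p of 0.05 where the fit without it had 650. Members higher with eltrombopag numbered 30 to 38 and their median ran from 0.018 to 0.055, the same with the 47 subunits alone (35 higher, median 0.027). Leaving out both arrays of number 1, 2 or 4 was chosen after seeing the data. Across numbers, 0 members passed in every alternative, with the smallest adjusted p of a member at 0.158 in limma (trended and robust variance). Genes passing across numbers were 41, against 198 with the trended and robust variance and 2 to 13 with 1 number left out. Of 679 values of single genes under alternatives 0 passed the test and 53, of 22 genes, turned sign; the cause was not tested. In numbers 3 and 4 only these were Atp5g1 (-0.032), Atp5mpl (0.0071), Bcs1l (0.18), Coq6 (0.074), Cox6a2 (-0.020), Cox6b2 (0.13), Cox8a (-0.014), Cox8b (0.12), Sdhaf3 (0.0079) and Uqcc2 (-0.044). In numbers 1 and 2 only they were Atp5g2 (-0.073), Cox4i2 (0.20), Cox6a1 (0.00093), Cox7a1 (0.027), Cox7a2 (-0.023) and Cox8c (0.035). Without both arrays numbered 3 they were Atp5mpl (0.019), Cox4i2 (0.13) and Cox7b2 (0.027), with quantile normalization Atp5mpl (0.0028) and Cox8a (-0.00081), and with equal medians Cox8a (-0.0077). The median of complex II turned to 0.011 without both arrays numbered 4, and that of complex IV ran from -0.016 to 0.042 with 1 array left out. Leaving out 1 array gave ranges for Atp5g1 from -0.025 to 0.038, Atp5g2 from -0.011 to 0.090, Atp5mpl from -0.041 to 0.027, Bcs1l from -0.12 to 0.086, Cox4i1 from -0.028 to 0.054, Cox4i2 from -0.18 to 0.14, Cox6a2 from -0.029 to 0.21, Cox7a1 from -0.17 to 0.029 and Cox7b from -0.011 to 0.14. Further ranges were, for Cox7b2 from -0.10 to 0.019, Cox8a from -0.031 to 0.033, Cox8b from -0.22 to 0.0043, Cox8c from -0.063 to 0.040, Sdhaf3 from -0.15 to 0.027, Sdhc from -0.077 to 0.0012, Sdhd from -0.072 to 0.027 and Uqcrq from -4.1e-05 to 0.12. The number of arrays limits what differences could be seen.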

Other observations

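After group means were removed, the mean of the 48 members over the 8 arrays was most like the values of Tlr5, Olfr322, Fam181a, Pcp2 and Pramel27, with Pearson correlations of 0.993, 0.992, 0.971, 0.970 and 0.969. These are the 5 highest among all other genes on the same arrays, and no test was made of them. Picked from so many genes over 8 arrays, such values can be high without any shared regulation.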
